A study of Bos taurus with 2 samples.

Results

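SOX2-positive cells of day 25 bovine chimeric embryos were divided by their ribosomal share, the percentage of a cell's UMIs (unique molecular identifiers, barcodes by which copies of 1 captured molecule are counted as 1) that came from cytosolic ribosomal protein genes. Cells were chosen by their total UMIs, SOX2, neuron genes and ribosomal share: a cell was included when it held 3000 to 12000 UMIs, at least 1 SOX2 UMI, and fewer than 3 of the 5 neuron genes TUBB3, DCX, ELAVL3, ELAVL4 and STMN2. Of the 4437 deposited cells 1490 met these conditions, 634 in replicate 1 and 856 in replicate 2. Those with a share of 15% or more form the high side (470 cells) and those under 5% the low side (739 cells), and the remaining 281 cells lie between them. The embryos were flushed on day 25, carried bovine embryonic stem cells, and were digested with papain and DNase, and their cells passed a sorter and then a 10x Genomics droplet kit that reads mRNA from the 3' end. The samples carry 1 label and are 2 replicates of 1 group, with no second group, treated or genetically altered, to set beside it. GFP was among the genes counted in this group, and the labels do not give its source. They also name neither the sort gate nor the embryos behind each sample. Both sides come from the same 2 suspensions, so the comparison is between cells within a replicate, and p-values measure only the spread between these 2 samples, which may be technical. No sequence of any member is shown, since no sequence table was used here.

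Ribosomal proteins are the protein subunits of the ribosome, and their mRNAs belong to a class with a terminal oligopyrimidine tract, which growth signals through the mTOR kinase hold back from or admit to translation together. The same class includes mRNAs of translation elongation factors and of the growth-associated protein TPT1. SOX2 is a transcription factor of neural progenitors in the early neural tube, where it helps to hold cells in a dividing, undifferentiated state, and it is also made in parts of the foregut and surface ectoderm.

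The ribosomal share was spread unevenly among the SOX2-positive cells. Replicate 1 had 357 low cells (56.3%, exact 95% Clopper-Pearson interval 52.3 to 60.2) and 156 high cells (24.6%, 21.3 to 28.2). Replicate 2 had 382 low cells (44.6%, 41.3 to 48.0) and 314 high cells (36.7%, 33.4 to 40.0). These intervals cover counting error only, and those of the replicates do not overlap. Low cells crowded around a median share of 2.43% in replicate 1 and 2.37% in replicate 2, while high cells spread widely around 23.0% in each. The values that set the sides are a description and were not tested: 80 cells lay within 1 point below the 5% limit and 53 within 1 point above it (nearest shares 4.98% and 5.05%), and 20 and 19 cells lay as near to the 15% limit (nearest 14.98% and 15.03%). In the histogram of the share the low cells stand as a narrow peak and the rest are spread thinly over a wide range, with a broad second rise above 15% in replicate 2.

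**Figure D1:**
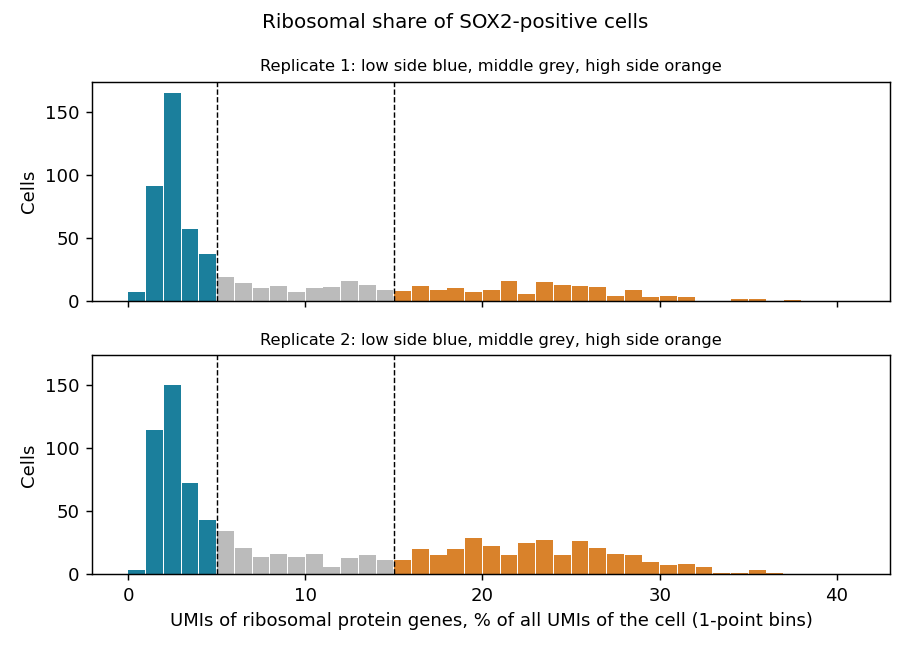
Number of SOX2-positive cells (vertical axis) in 1-point bins of the ribosomal share in percent (horizontal axis), with replicate 1 above and replicate 2 below, and dashed lines at 5% and 15%. In both replicates the low cells form a narrow peak around 2% to 3% and the high cells spread without a sharp peak.

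The other cells with 3000 to 12000 UMIs also held both kinds. Among those outside the selection, 57.9% in replicate 1 and 44.6% in replicate 2 had a share under 5%, and 16.9% and 30.5% had 15% or more. These join 2 unlike groups. Of the cells with no SOX2 UMI, 66.4% and 53.8% had a share under 5%, and 10.4% and 21.7% had 15% or more. Among the 161 and 216 SOX2-positive cells that were set aside for their neuron genes, 37.3% and 53.2% had 15% or more. Median depth was 5642 and 5821 UMIs in the former and 7846 and 8734 in the latter, against 6202.5 and 6866.5 in the selection. The 2 libraries share 6 cell barcodes, none of them among the cells described here.

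The high cells were deeper than the low cells. Median UMIs per cell were 9630.5 and 9442.5 on the high side of replicates 1 and 2, against 5400 and 5375.5 on the low side. With the ribosomal protein genes set aside the medians were 7285 and 7318.5 against 5236 and 5196.5, so the gap did not lie in ribosomal UMIs alone. Detected genes per cell were 3403 and 3455 against 2929 and 2934.5. When each cell was thinned to 3000 UMIs the order turned, with 1630 and 1620 detected genes on the high side against 2035 and 2038 on the low side. It stayed turned, by less, when only UMIs outside the ribosomal protein genes were thinned, to 2000 per cell: 1389 and 1378 against 1502 in each replicate. No cell of either side was too shallow for either depth. The high cells' UMIs were also held by fewer genes: the genes that held the first 10% of the UMIs outside the ribosomal protein genes numbered 24 in each replicate on the high side and 121 and 123 on the low side. Doublets were not called, and the limits on them were the 12000 UMIs of the rule and the 3999 detected genes that no deposited cell exceeded. Since low cells had more detected genes at equal depth, a limit on genes is met by low cells at fewer UMIs. The part of that limit in the depth gap between the sides was not tested.

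Mitochondrial counts were few on both sides. The median mitochondrial share was 0.235% and 0.173% on the high side and 0.372% and 0.386% on the low side, in a deposit where the highest cell had 4.98%. In UMIs per cell the medians were close, 21 and 16 against 20 and 19.

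SOX2 itself was part of the rule and is described only. It held 3.79 and 3.53 UMIs per cell on the high side and 2.23 and 2.16 on the low side. In counts per 1000000 UMIs (CPM) of the whole sum it had 423 and 390 against 390 and 388. Over the UMIs outside the ribosomal protein genes it had 551 and 510 CPM against 401 and 398. Detection of a single UMI is a loose marker in these libraries. In cells of the same depth window with 10 or more UMIs of fibrillar collagen genes, a mesenchymal feature, SOX2 was detected in 15 of 33 cells (45.5%) of replicate 1 and in 30 of 77 (39.0%) of replicate 2, at median depths of 8040 and 6080 UMIs. PAX6 or SOX1, which with SOX2 mark neural progenitors, were detected in 213 (59.7%) and 223 (58.4%) of the low cells and in 71 (45.5%) and 121 (38.5%) of the high cells. The same genes were detected in 39.7% and 37.3% of cells with no SOX2 UMI, at median depths of 5642 and 5821 UMIs, and in 2 and 17 of the collagen-rich cells. The high side's shares therefore lay within a few points of those in cells without SOX2, and neither side is called neural here as a whole. Cells with 3 or more mesenchyme or epithelium genes numbered 74 and 77 on the low side (20.7% and 20.2%) and 75 and 161 on the high, deeper side (48.1% and 51.3%).

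After the genes that the rule reads were removed (90 symbols of the ribosomal pattern, SOX2 and the 5 neuron genes), 11751 genes were tested between the sides, with summed counts per side and replicate, edgeR's quasi-likelihood test, TMM scaling and Benjamini-Hochberg adjustment over all genes. At an adjusted p under 0.05, 4090 genes (34.8%) were higher on the high side and 3865 (32.9%) were lower, together 67.7% of those tested. With so large a share called, each list is read below by the size of its differences and the balance of its directions beside these percentages. The higher genes reached further than the lower ones: 2958 were at least 2-fold higher and 507 at least 8-fold, against 1726 and 73 lower. Over the 5181 genes at 50 CPM or more, the replicates' own log2 ratios went together with a Pearson r of 0.973, a description across genes, which are not independent replicates. Without TMM, which scales libraries on the bulk of their genes, the median log2 fold change of all genes moved from -0.01 to -0.37. The calls then numbered 3237 higher (27.5%) and 5443 lower (46.3%), so 37.3% of calls were higher, against 51.4% with TMM. All fold changes below are relative to the TMM median, and levels are given as UMIs per cell in replicate 1 and replicate 2.

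**Figure D2:**
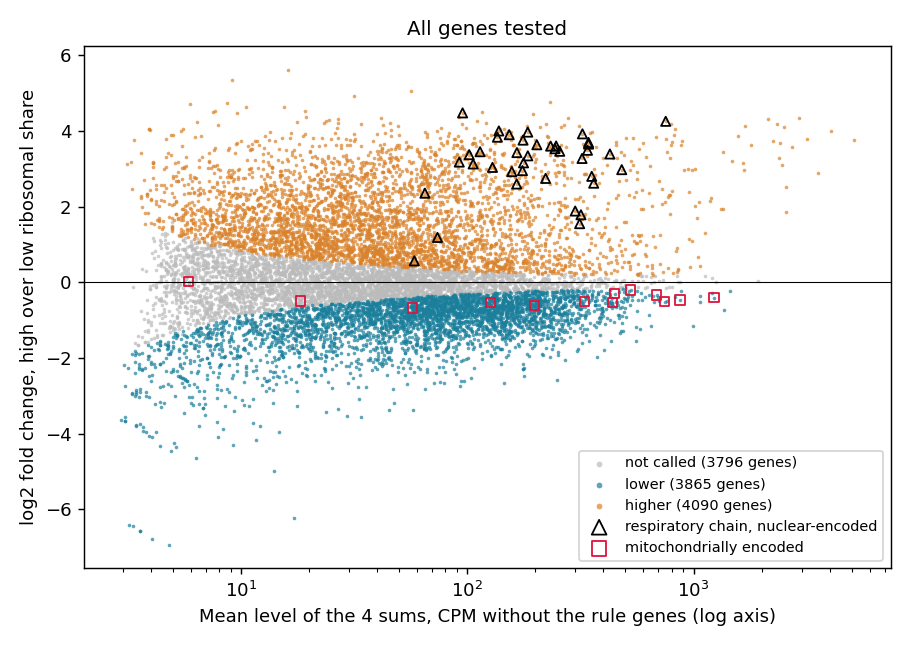
Log2 fold change of the high over the low side (vertical axis) against the mean level of the 4 sums in CPM without the rule genes (horizontal log axis), 1 point per gene tested. Higher genes (4090) are orange, lower genes (3865) blue and the rest grey, with triangles for nuclear-encoded respiratory chain genes, all above 0, and squares for mitochondrially encoded genes, nearly all just below it.

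The plot of all genes tested shows orange points reaching far above 0 at every level, and blue points mostly within a narrow band below it. The triangles and squares in it belong to proteins of the same respiratory complexes, encoded in the nucleus and in the mitochondrion.

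The ribosomal protein genes whose symbols the rule's pattern misses followed those it reads. RPL3 and RPS6, which the rule read, had 1.49 and 1.48, and 1.17 and 1.30 UMIs per low cell, against 15.0 and 15.0, and 18.9 and 19.6 per high cell. Of those outside the pattern, the stalk proteins RPLP0, RPLP1 and RPLP2, the small subunit protein RPSA, and FAU, whose product also carries a ubiquitin-like part, were higher. RPLP1 had 1.90 and 1.89 UMIs per low cell and 37.6 and 38.2 per high cell, and RPSA had 2.97 and 2.98 against 38.5 and 41.3. These genes measure nearly what the rule measured, so their direction adds no separate evidence. These named genes differed little among themselves, with log2 fold changes from 3.74 for RPLP2 to 4.35 for RPLP1.

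Translation factors were higher as a group, with 29 of 33 called higher, 2 lower and a median of 1.92. TPT1, whose mRNA is regulated like those of ribosomal proteins, had 1.46 and 1.39 UMIs per low cell and 26.9 and 28.4 per high cell. The replicate levels of the sides do not overlap, and the difference was 19.9-fold (log2 4.31 ± 0.08 SE, edgeR adjusted p = 1.31e-27). RACK1, a scaffold protein of the small ribosomal subunit, had 1.34 and 1.21 against 21.4 and 22.0 (log2 4.12 ± 0.08). EIF3G, a subunit of the initiation factor eIF3, had 0.118 and 0.105 against 1.69 and 1.90. The 2 lower members were EIF4H, which helps the helicase eIF4A unwind mRNA, at 0.566 and 0.602 against 0.282 and 0.223 (log2 -1.22 ± 0.17), and EIF2S1, the alpha subunit of eIF2, at 1.22 and 1.13 against 0.731 and 0.857. At 4000 to 8000 UMIs the EIF2S1 call was lost (edgeR adjusted p = 0.101).

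Genes for building ribosomes were less uniform. Of 30 tested, 18 were higher and 6 lower, with a median of 0.72; without TMM 13 were higher and 10 lower, and DESeq2 called 10 higher and 3 lower. The nucleolar proteins NPM1 (1.59 and 1.44 against 11.7 and 11.6) and FBL, the methyltransferase fibrillarin (0.317 and 0.309 against 1.83 and 2.03), were among the higher ones, at log2 2.98 ± 0.08 and 2.66 ± 0.12. RRN3, an initiation factor of RNA polymerase I, was lower at 0.613 and 0.599 against 0.205 and 0.274 (log2 -1.27 ± 0.17). POLR1A, the largest subunit of that polymerase, was lower at 0.364 and 0.356 against 0.205 and 0.175 (log2 -0.91 ± 0.20). HEATR1, a factor for ribosomal RNA production, was also lower (log2 -1.12 ± 0.26), although with DESeq2 its adjusted p was 0.0563.

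MYC and mTOR pathway genes did not move one way, with 4 of 14 higher and 5 lower and a median of 0.03, and 3 and 7 without TMM. MYCN, the MYC factor of neural tissue, had 0.101 and 0.115 UMIs per low cell and 0.321 and 0.334 per high cell (log2 1.62 ± 0.23). A pair of translation repressors that mTOR inhibits went apart. EIF4EBP1 was higher at 0.162 and 0.194 against 1.11 and 1.01 (6.0-fold, log2 2.58 ± 0.15, edgeR adjusted p = 2.17e-15). EIF4EBP2 was lower at 0.507 and 0.550 against 0.115 and 0.118 (log2 -2.16 ± 0.20, edgeR adjusted p = 1.12e-10). RICTOR, a subunit of mTOR complex 2, was lower at 1.57 and 1.45 against 0.712 and 0.768.

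The respiratory chain genes of the nucleus, whose products carry electrons and make ATP in the mitochondrion, were higher throughout. All 39 tested were called, with a median log2 fold change of 3.37, against -0.01 over all genes. UQCR11, a small subunit of complex III, had 0.0616 and 0.0524 UMIs per low cell and 1.21 and 1.28 per high cell (22.2-fold, log2 4.48 ± 0.18, edgeR adjusted p = 1.06e-19). ATP5MC2, a ring subunit of ATP synthase, had 0.490 and 0.550 against 9.76 and 9.71 (log2 4.25 ± 0.09). NDUFS5, a subunit of complex I, had 0.112 and 0.113 against 1.69 and 1.83 (log2 4.00 ± 0.15).

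The mitochondrially encoded genes, which supply the partner subunits of those complexes, showed no such gain. Of 13 tested with edgeR, 0 were higher and 11 lower, with a median of -0.50. At an unadjusted p under 0.05 edgeR also gave 0 higher and 11 lower, and DESeq2 gave 0 higher and 10 lower, 7 of them after adjustment. COX3, a subunit of cytochrome oxidase, had 8.61 and 8.31 UMIs per low cell and 7.20 and 5.48 per high cell (log2 -0.40 ± 0.08). ND1, a complex I subunit, had 5.45 and 5.11 against 3.99 and 3.31 (log2 -0.51 ± 0.08). Summed over the 13 genes, the level was 40.5 and 38.0 UMIs per low cell and 32.0 and 25.9 per high cell. Where the cells were limited to 4000 to 8000 UMIs, with 39 and 64 cells left on the high side, 0 of 12 were called by edgeR in either direction, also 0 at an unadjusted p under 0.05, and the median was -0.09, on a background of 23.6% higher and 19.4% lower. ATP6, COX2, CYTB and ND4L then changed sign. In that window 37 of the 39 nuclear genes were called higher, with a median of 2.97.

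Energy and protein supply genes were also higher on the high side. Of the glycolysis genes, 17 of 19 were higher with a median of 2.59. ENO1, enolase, had 1.84 and 1.86 UMIs per low cell and 22.1 and 22.8 per high cell (log2 3.63 ± 0.08). LDHA, which makes lactate, had 0.476 and 0.461 against 5.72 and 5.59 (log2 3.62 ± 0.09). The one lower member was HK2, a hexokinase that starts glycolysis, at 0.644 and 0.534 against 0.333 and 0.360 (log2 -0.70 ± 0.16). The HK2 call was lost at 4000 to 8000 UMIs (log2 -0.48, edgeR adjusted p = 0.191) and with cells thinned to 3000 UMIs (edgeR adjusted p = 0.0533).

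Proteasome genes were higher in 19 of 20 cases, with a median of 2.21, led by the catalytic subunit PSMB6 at 0.120 and 0.139 against 1.97 and 2.03. Genes of protein export into the endoplasmic reticulum were higher in 22 of 22, with a median of 1.72, led by SSR4, a subunit of the translocon-associated complex, at 0.583 and 0.576 against 9.94 and 10.6. Of the chaperones 16 of 21 were higher and 2 lower, with a median of 1.65. The constitutive chaperone HSP90AB1 had 5.88 and 5.72 UMIs per low cell and 40.0 and 43.7 per high cell (log2 2.88 ± 0.07), and the folding enzyme PPIA had 0.625 and 0.599 against 8.35 and 8.94. Both lower members are heat-inducible: HSPA1A at 1.33 and 1.06 against 0.801 and 0.541, and HSPH1 at 1.26 and 1.13 against 0.673 and 0.640.

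All 23 cytoskeleton genes were higher, with a median of 2.30. TMSB10, a thymosin that binds actin monomers, had 3.02 and 2.86 UMIs per low cell and 34.2 and 33.9 per high cell (log2 3.56 ± 0.08). ACTG1, cytoplasmic gamma actin, had 2.49 and 2.33 against 30.5 and 29.9 (log2 3.68 ± 0.08), and PFN1, profilin, had 0.364 and 0.296 against 4.19 and 3.92. Genes with many processed copies, such as ACTG1, PPIA, TPT1, KRT8 and KRT18, are uncertain where the counting could have split their reads.

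**Figure D3:**
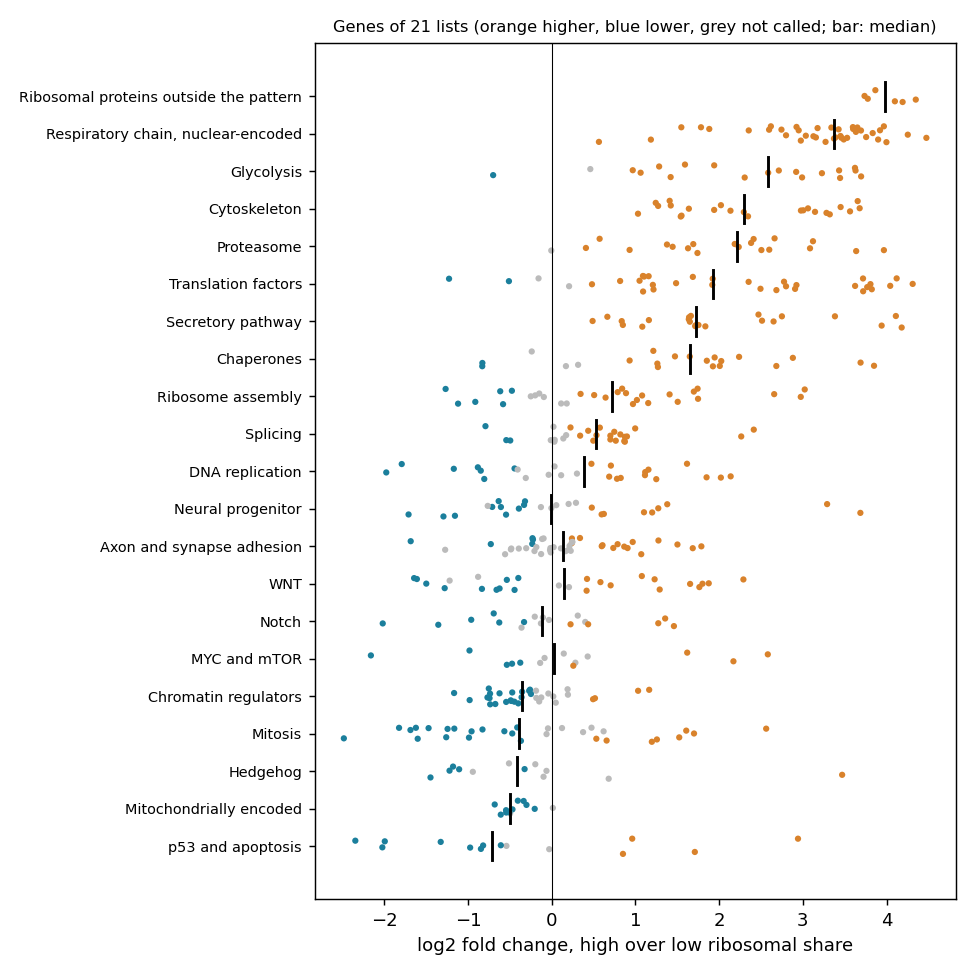
Log2 fold change of the high over the low side (horizontal axis) for each tested gene of 21 lists (rows), orange for higher, blue for lower and grey for not called, with a black bar at each list's median. Respiratory chain genes of the nucleus lie wholly to the right (median 3.37), and mitochondrially encoded and chromatin genes lie mostly left of 0. The neural progenitor, WNT and Notch lists are spread to both sides.

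In the plot of the lists the supply genes form one block with medians from 1.65 upward. The lowest medians are those of p53 and apoptosis (-0.71), mitochondrially encoded (-0.50), Hedgehog (-0.42), mitosis (-0.39) and chromatin (-0.35) genes, and Notch is at -0.12.

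Splicing genes were called higher in 18 of 27 cases and lower in 3, with a median of 0.54; without TMM 13 were higher and 8 lower, with a median of 0.18. The hnRNP proteins HNRNPA1 (1.87 and 1.58 against 9.37 and 8.55) and HNRNPK (1.28 and 1.25 against 5.90 and 5.97) stood at log2 2.41 ± 0.08 and 2.26 ± 0.08. The 3 lower members were the kinases CLK1 and CLK4, which phosphorylate SR proteins, and the splicing activator TRA2A, at 3.06 and 3.02 against 2.17 and 1.95 (log2 -0.54 ± 0.08). At 4000 to 8000 UMIs neither CLK1 (edgeR adjusted p = 0.452) nor CLK4 (0.0985) was called. Chromatin regulators leaned the other way, with 20 of 33 lower and 4 higher and a median of -0.35. EP300, a histone acetyltransferase, had 1.36 and 1.37 UMIs per low cell and 0.532 and 0.643 per high cell (log2 -1.16 ± 0.12). KDM6A, a histone demethylase, had 1.48 and 1.56 against 0.846 and 0.694, and SETD2, a histone methyltransferase, had 1.23 and 1.28 against 0.718 and 0.729. Among the 4 higher were the remodelling ATPases CHD4 (1.05 and 1.12 against 2.41 and 2.38, log2 1.17 ± 0.09), CHD3 and SMARCA4; SMARCA4 lost its call without TMM (edgeR adjusted p = 0.182).

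Cell cycle lists contained opposing members. Of 26 DNA replication genes 13 were higher and 7 lower with TMM, and 10 and 11 without it. The replicative helicase genes MCM5 (0.263 and 0.243 against 1.19 and 1.01, log2 2.14 ± 0.14) and MCM2 (0.218 and 0.267 against 0.885 and 0.850, log2 1.85 ± 0.15) and the licensing factor CDT1 were higher. DTL, which targets CDT1 for destruction, was lower at 2.13 and 2.12 against 0.513 and 0.541 (log2 -1.97 ± 0.11, edgeR adjusted p = 1.94e-16). The loading factor CDC6 (log2 -1.79 ± 0.21) and the checkpoint mediator CLSPN (log2 -1.17 ± 0.17) were lower too. Summed, the list had 14.1 and 14.6 UMIs per low cell and 16.0 and 14.3 per high cell, so the replicates of the sides are interleaved.

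Of 30 mitosis genes 16 were lower and 8 higher, with a median of -0.39. NDC80, a kinetochore protein, had 1.70 and 1.73 UMIs per low cell and 0.340 and 0.277 per high cell (log2 -2.48 ± 0.13, edgeR adjusted p = 5.31e-17). The kinase CDK1 was lower at 0.504 and 0.547 against 0.147 and 0.146, and the spindle protein ASPM at 1.11 and 1.15 against 0.397 and 0.312. The centromeric histone CENPA (0.0672 and 0.0340 against 0.269 and 0.299), the anaphase activator CDC20 and the kinase AURKB were higher. CENPA's log2 fold change of 2.56 was 3.15 without replicate 1. Summed, the list had 20.3 and 21.2 UMIs per low cell and 18.7 and 15.0 per high cell. With only cells in which PAX6 or SOX1 was detected, 11 were higher and 11 lower, on a background of 30.8% higher and 28.3% lower.

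Neural progenitor genes were split, with 9 of 25 higher and 10 lower with TMM, and 6 and 14 without it. VIM, the intermediate filament of progenitors and mesenchyme, had 2.98 and 3.10 UMIs per low cell and 27.6 and 30.8 per high cell (log2 3.29 ± 0.08), with a median of 25 and 27 over high cells, so it was not held by a few cells. FABP7, a fatty acid carrier of radial glia, had 0.101 and 0.0628 against 1.09 and 0.959 (log2 3.69 ± 0.18), and the RNA-binding MSI1 had 0.322 and 0.280 against 0.833 and 0.707. PAX3, a transcription factor of the dorsal neural tube, was lower at 1.43 and 1.20 against 0.577 and 0.478 (log2 -1.29 ± 0.12). LIN28A, which blocks maturation of let-7 miRNAs, was lower at 0.218 and 0.199 against 0.0321 and 0.0796. Its log2 fold change of -1.71 was -2.72 without replicate 2, and that of the receptor phosphatase PTPRZ1, -1.15, was -0.67 without replicate 1 and -1.93 without replicate 2, with its call lost at 4000 to 8000 UMIs (edgeR adjusted p = 0.369). Summed over 28 genes the list held 26.5 and 25.4 UMIs per low cell and 54.1 and 56.9 per high cell, of which VIM made up a large part on the high side.

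Neuron genes outside the rule were called higher in 4 of 10 cases and lower in 4, and in 3 and 4 without TMM. GAP43, a growth cone protein, had 0.132 and 0.107 UMIs per low cell and 2.62 and 2.46 per high cell (log2 4.44 ± 0.13, edgeR adjusted p = 3.01e-23). Its median was 0 over high cells: 29 and 56 cells with 5 or more UMIs held 81.7% and 82.5% of all GAP43 UMIs of that side. SYT1, a synaptic vesicle protein, was higher at 1.69 and 1.48 against 2.91 and 3.20, and SNAP25, a vesicle fusion protein, lower at 1.33 and 1.26 against 0.737 and 0.761. The SNAP25 call was lost at 4000 to 8000 UMIs (edgeR adjusted p = 0.0711). MAP2, a microtubule protein of dendrites, was called higher (log2 0.20 ± 0.08) but was -0.16 without TMM. Of the neuron genes in the rule, STMN2 had 0.311 and 0.304 UMIs per low cell and 2.05 and 1.84 per high cell, and ELAVL3 had 0.560 and 0.584 against 0.250 and 0.252. The proneural genes were few, with 1 of 9 higher and 2 lower, among them the RNA-binding ELAVL2 at 0.482 and 0.453 against 0.109 and 0.0764 (log2 -2.36 ± 0.23). Axon, synapse and adhesion genes were higher in 15 of 42 and lower in 5, but 9 and 18 without TMM, so the list has no direction that holds under both scalings. DSCAM, an adhesion molecule of axons, was higher at 0.462 and 0.599 against 1.74 and 1.87, and ERBB4, a neuregulin receptor, lower at 9.96 and 10.4 against 5.53 and 6.53 (log2 -0.73 ± 0.07). Among cells with PAX6 or SOX1 the ERBB4 difference was 0.00.

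In the Notch pathway, in which a cell's ligands restrain the differentiation of its neighbours, 5 of 18 genes were higher and 6 lower, but 3 and 10 without TMM. The receptors NOTCH1 (0.134 and 0.118 against 0.282 and 0.309) and NOTCH3 (0.210 and 0.186 against 0.590 and 0.420) were higher, at log2 1.27 ± 0.22 and 1.36 ± 0.18. The ligand JAG1 (1.00 and 0.838 against 0.545 and 0.395), the coactivator MAML1 (1.17 and 1.15 against 0.481 and 0.420, log2 -1.35 ± 0.13) and the target HEY2 (0.129 and 0.144 against 0.0192 and 0.0414) were lower. HEY2's log2 fold change of -2.02 was -2.68 without replicate 2, and its edgeR adjusted p was 0.0534 at 4000 to 8000 UMIs.

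In the WNT pathway 12 of 26 were higher and 10 lower with TMM, and 8 and 13 without it. Both named R-spondin receptors, which raise WNT receptor levels at the membrane, were lower. LGR5 had 0.574 and 0.573 UMIs per low cell and 0.173 and 0.191 per high cell (log2 -1.61 ± 0.18, edgeR adjusted p = 3.71e-09), and LGR4 had 0.754 and 0.743 against 0.237 and 0.274 (log2 -1.50 ± 0.16). NKD1, an inhibitor that WNT signals induce, was lower at 0.398 and 0.526 against 0.199 and 0.118, with a log2 fold change of -1.64 that was -0.96 without replicate 2. The ligand RSPO3 was higher at 0.664 and 0.319 against 1.69 and 1.68 (log2 1.88 ± 0.22), and 17 and 36 high cells with 5 or more UMIs held 84.8% and 88.1% of it. Among cells with no neuron gene detected RSPO3 was lower instead (log2 -0.92, edgeR adjusted p = 0.0143). The receptor FZD2 was higher at 0.109 and 0.0838 against 0.346 and 0.309 (log2 1.80 ± 0.23).

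Of 12 Hedgehog genes 1 was higher and 5 lower. The ligand SHH, made by the floor plate, notochord and gut, had 0.101 and 0.126 UMIs per low cell and 1.25 and 1.23 per high cell (11.1-fold, log2 3.47 ± 0.16, edgeR adjusted p = 3.21e-18). FOXA2, the transcription factor of floor plate and endoderm that shares those tissues, had 1.04 and 0.919 against 3.27 and 3.37 (log2 1.80 ± 0.09). Among the 5 lower were HHIP, a decoy that Hedgehog induces (1.12 and 1.06 against 0.474 and 0.465, log2 -1.18 ± 0.13), SUFU, which restrains GLI factors (0.543 and 0.584 against 0.244 and 0.236), and the transcription factor GLI2 (0.154 and 0.162 against 0.0513 and 0.0605). HHIP lost its call at 4000 to 8000 UMIs (log2 -0.23, edgeR adjusted p = 0.416), and GLI2 lost its call among cells with PAX6 or SOX1 (edgeR adjusted p = 0.167). The receptor PTCH1 (1.26 and 1.29 against 1.25 and 1.11) and the transducer SMO (0.602 and 0.641 against 0.622 and 0.561) were not called. Without TMM 10 of the 12 were lower.

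Of 14 FGF and retinoid genes 3 were higher and 5 lower, and 3 and 7 without TMM. ETV5, a transcription factor induced by FGF signals, had 0.521 and 0.584 UMIs per low cell and 0.128 and 0.0924 per high cell (log2 -2.37 ± 0.21, edgeR adjusted p = 3.60e-11). SPRED1, an inhibitor of the same signal, was lower at 2.24 and 2.37 against 1.04 and 1.14. CRABP1, which carries retinoic acid in the cytoplasm, was higher at 1.02 and 1.12 against 5.06 and 4.84 (log2 2.24 ± 0.09).

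Stress lists were mixed. Of 21 early response genes 6 were higher and 3 lower with TMM, and 5 and 7 without it: JUND, an AP-1 subunit, was higher (1.00 and 1.01 against 1.81 and 1.77), and ATF3, a repressor induced by stress, lower (1.93 and 2.12 against 0.840 and 0.745, log2 -1.35 ± 0.10). In the integrated stress response 6 of 13 were higher and 4 lower, with its transcription factor ATF4 higher at 2.42 and 2.37 against 4.78 and 4.79 and the leucine sensor SESN2 lower at 1.13 and 1.05 against 0.417 and 0.309. Of 14 p53 and apoptosis genes 8 were lower and 4 higher, with a median of -0.71, but at 4000 to 8000 UMIs 3 of 13 were lower and 4 higher, with a median of 0.00. The death-promoting genes BCL2L11 (0.580 and 0.647 against 0.147 and 0.156, log2 -1.99 ± 0.18) and PMAIP1 (0.448 and 0.304 against 0.0962 and 0.0796) were lower, while BAX, which permeabilizes the mitochondrion, was higher at 0.0476 and 0.0445 against 0.462 and 0.258 (log2 2.94 ± 0.27).

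Ranked by size among genes at 50 CPM or more on their higher side, the genes with the largest gains were not all supply genes. CATHL5, a cathelicidin, led them with 0.0364 and 0.0105 UMIs per low cell and 0.699 and 0.799 per high cell; its log2 fold change of 5.04 was 6.23 without replicate 1 and 4.28 without replicate 2. CALML4, a calmodulin-like protein, had 0.0812 and 0.0576 against 1.52 and 1.52 (log2 4.49 ± 0.17), and PFDN5, a subunit of the prefoldin chaperone, had 0.176 and 0.188 against 3.63 and 3.58 (log2 4.33 ± 0.11). At the other end PRSS12, a secreted protease, had 0.350 and 0.340 against 0.0513 and 0.0159; its log2 fold change of -3.56 was -4.36 without replicate 1 and -2.72 without replicate 2. LSMEM1, a membrane protein, had 0.471 and 0.487 against 0.0513 and 0.0510 (log2 -3.20 ± 0.25), and CRTAC1, a secreted cartilage protein, had 0.462 and 0.458 against 0.0513 and 0.0382 (log2 -3.38 ± 0.27). EPHA4, an ephrin receptor in axon guidance and rhombomere borders, had 1.59 and 1.23 against 0.301 and 0.162 (log2 -2.65 ± 0.15, edgeR adjusted p = 3.48e-16). KLF5, a zinc finger factor of early epithelia, had 0.863 and 0.696 against 0.0962 and 0.127 (log2 -2.67 ± 0.19). GFPT2, which supplies the hexosamine pathway, had 0.891 and 0.927 against 0.141 and 0.131 (log2 -2.73 ± 0.17).

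The table also holds a GFP row, and the source of the GFP gene in these cells is not given in the labels. GFP had 3.38 and 3.54 UMIs per low cell and 32.9 and 25.98 per high cell (8.6-fold, log2 3.10 ± 0.09, edgeR adjusted p = 8.44e-22). It was present in most high cells, of which 145 of 156 and 303 of 314 had 5 or more GFP UMIs. On the low side 80 of 357 and 87 of 382 cells had as many. The sides therefore differed in GFP as well as in ribosomal share, and the part of either in the other results was not tested. The replicate levels of the sides do not overlap, although single cells do. The log2 fold change of GFP lay between the medians of the cytoskeleton list (2.30) and the nuclear respiratory chain list (3.37).

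Markers of epithelium, mesenchyme, endoderm and yolk sac were also more abundant on the high side, and their part in the other results was not tested. Of 4 surface ectoderm genes tested 3 keratins were higher and the fourth was not called. KRT8 had 0.157 and 0.134 UMIs per low cell and 1.65 and 0.955 per high cell (log2 3.16 ± 0.16), and the top 5% of high cells held 82.9% and 73.7% of it. In cells with no neuron gene detected the KRT8 difference was -0.02, and KRT18 was not called (edgeR adjusted p = 0.634). The whole list of 17 epithelial genes summed to 0.927 and 0.757 UMIs per low cell and 4.90 and 3.56 per high cell, with 8 genes at 0 on the high side in each replicate. Of 14 mesenchyme genes 8 were higher and 1 lower. Without TMM 5 were higher and 3 lower. Where the cells that had 3 or more mesenchyme or epithelium genes were left out, 3 of 9 were higher and 1 lower, with a median of 0.17. Those cells were left out by genes of this same list, so a smaller difference was partly set in advance. Over all 10858 genes tested without those cells, 3397 were higher and 3058 lower. COL3A1, a fibrillar collagen, had 0.227 and 0.343 against 1.48 and 1.39 (log2 2.34 ± 0.14), and the matrix protein FN1 was lower (log2 -0.66 ± 0.15), though not at 4000 to 8000 UMIs (edgeR adjusted p = 0.243). The 18 mesenchyme genes summed to 2.23 and 2.91 UMIs per low cell and 6.10 and 6.33 per high cell, with none at 0. The 3 gut endoderm genes tested, of 11 in the list, were FOXA2, SHH and TTR, and all were higher. FOXA2 and SHH are also floor plate genes, described above with the Hedgehog genes. All 4 yolk sac or liver genes tested were higher, and TTR is counted in both lists. The plasma lipid carrier APOA1 had 0.261 and 0.406 UMIs per low cell and 2.32 and 2.67 per high cell (log2 2.93 ± 0.12). TTR, the thyroxine carrier, had 0.0448 and 0.0550 against 0.160 and 0.984. Its log2 fold change of 3.51 was 1.86 without replicate 2 and 4.18 without replicate 1, and its edgeR adjusted p was 0.124 without the replicate block. The endoderm list of 11 genes summed to 1.27 and 1.15 UMIs per low cell and 4.70 and 5.67 per high cell. Of this, FOXA2 held 3.27 and 3.37 and SHH 1.25 and 1.23 per high cell. The yolk sac list of 14 summed to 0.832 and 1.08 against 5.30 and 6.17. Erythroid genes summed to 4.83 and 4.25 against 4.86 and 5.28, while the otic and lens list had 0.560 and 0.592 UMIs per low cell and 0.288 and 0.360 per high cell, the endothelial list 0.171 and 0.173 against 0.0962 and 0.111, and the myeloid list 0.112 and 0.165 against 0.0385 and 0.0318.

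With the cells that had 3 or more mesenchyme or epithelium genes left out, 3397 genes were higher and 3058 lower, and 3326 of the genes called higher with all cells were again called higher. Among cells with PAX6 or SOX1, 3708 of those genes were tested, 3092 were again higher and 3 were called lower. The respiratory chain list was then higher in 38 of 39 cases with a median of 3.31, the cytoskeleton list in 23 of 23 with 2.00, and the proteasome list in 18 of 20 with 2.13. Mitochondrially encoded genes were lower in 7 of 12 with a median of -0.27.

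The cells between the sides took middle levels for many genes. Of the 1734 higher genes at 50 CPM or more 637 increased at each step over 4 ranges of the share (under 5%, 5% to 10%, 10% to 15%, 15% or more) in both replicates, and for 981 the 10% to 15% range lay between the sides in both. Of 2335 lower genes 835 decreased at each step in both replicates, and for 1826 the 10% to 15% range lay between the sides in both. TPT1 had 1.46, 4.24, 8.68 and 26.9 UMIs per cell over the ranges in replicate 1 and 1.39, 4.13, 9.33 and 28.4 in replicate 2. UQCR11 had 0.0616, 0.145, 0.339 and 1.21 in replicate 1, and 0.0524, 0.111, 0.328 and 1.28 in replicate 2. NDC80 had 1.70, 1.10, 1.05 and 0.340 in replicate 1, and 1.73, 1.54, 0.918 and 0.277 in replicate 2. PAX3 was not ordered in replicate 2, where it had 1.20, 1.52, 1.07 and 0.478. The counts of ordered genes were taken on CPM without the rule genes and without TMM. On that scale the median log2 fold change of all genes between the sides was -0.37, so falls are counted more readily than rises. These orders use the same sums that the test used and are a description.

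**Figure D4:**
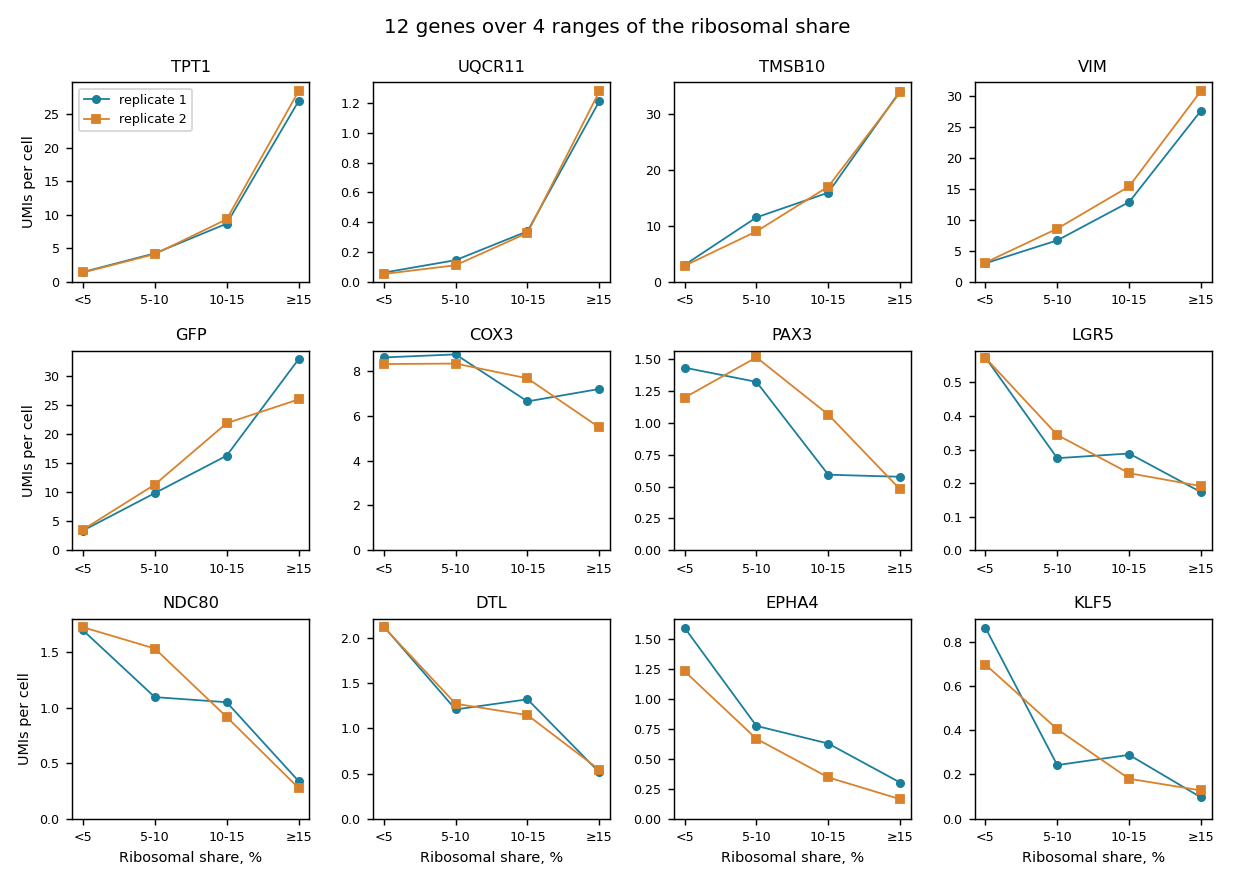
UMIs per cell (vertical axis, from 0) of 12 genes over 4 ranges of the ribosomal share in percent (horizontal axis), with blue circles for replicate 1 and orange squares for replicate 2. TPT1, UQCR11, TMSB10, VIM and GFP climb at every range in both replicates, and COX3 changes little up to 10%.

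The plot of the 12 genes shows that the replicates run close together for the abundant genes and part for some rarer ones, such as PAX3 at 10% to 15%.

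With 8 narrower ranges the lists changed within each side as well. In cells under 2% the 39 respiratory chain genes summed to 1668 and 1724 CPM, counted without the rule genes, and they reached 3622 and 3233 CPM in cells of 3.5% to 5%, all on the low side. On the high side they went from 12454 and 12898 CPM at 15% to 20% to 18612 and 17931 CPM at 25% or more. Cytoskeleton genes went from 3510 and 3630 CPM under 2% to 30986 and 29614 CPM at 25% or more. Chromatin regulators went from 10794 and 10363 CPM to 5319 and 5565 CPM, and mitosis genes from 4066 and 4071 to 2261 and 2047 CPM. These CPM carry no TMM scaling, and in UMIs per cell the sides differed less in these 2 lists. Chromatin regulators had 55.5 and 54.5 UMIs per low cell and 43.4 and 44.4 per high cell. Mitosis genes had 20.3 and 21.2 against 18.7 and 15.0. Median depth moved unevenly with these ranges, from 6046 and 5793 UMIs per cell under 2% through 4922.5 and 5095 at 2% to 3.5%. It was 6081 and 6921 at 10% to 15%, 8832 and 8446 at 15% to 20%, and 10060 and 9759 at 25% or more. The part of depth in the list sums was not tested.

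**Figure D5:**
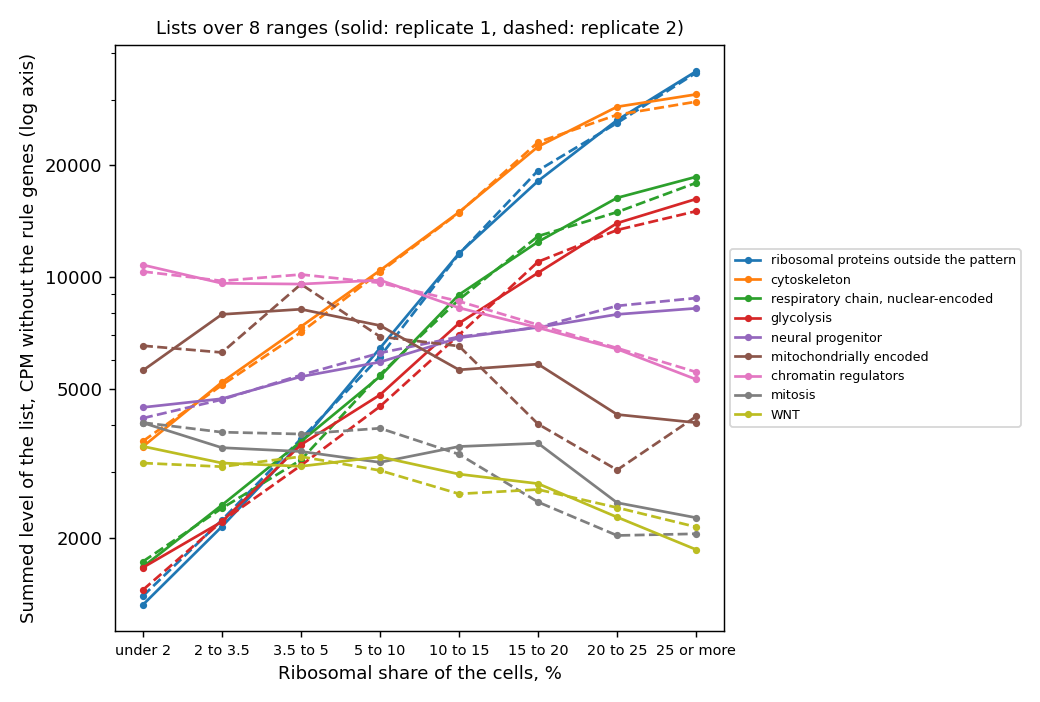
Summed level of 9 gene lists in CPM without the rule genes (vertical log axis) over 8 ranges of the ribosomal share in percent (horizontal axis), with solid lines for replicate 1 and dashed lines for replicate 2. Cytoskeleton and respiratory chain lists climb over the whole span, chromatin regulators fall above 10%, and the mitochondrially encoded list has no steady course at low shares.

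The plot of the lists over 8 ranges shows the cytoskeleton and respiratory chain lists changing over the whole span, and not only at 5% or 15%. The mitochondrially encoded list of replicate 2 fell from 9582 to 6929 CPM across 5% and from 6534 to 4035 CPM across 15%. In replicate 1 it went from 8207 to 7420 CPM and from 5643 to 5844 CPM.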

How the data were processed

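The values the authors deposited for the 2 replicates are whole UMI counts, which they had not normalized. The submitters' processing notes name Cell Ranger, Seurat 4.3.0, R 4.1.2 and the bosTau9 build. No source used here gives the annotation or the version of Cell Ranger. Every deposited cell had 201 to 3999 detected genes. Replicate 1 held 1973 cells and 11182089 UMIs, and replicate 2 held 2464 cells and 15427708 UMIs. Columns were matched to samples by the sample number in their names.

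The ribosomal share used 90 symbols of RPL or RPS followed by a digit, 11 of which are S6 kinase genes; an alternative without these is given. Counts were summed per side and replicate, the 96 rule genes removed, and the 4 sums fitted with edgeR 4.0.16 (R 4.3.3; filterByExpr, TMM, robust quasi-likelihood, Benjamini-Hochberg at 0.05). Replicate was a block, since both sides of a replicate come from 1 suspension. A gene's own spread had 1 residual degree of freedom, and the pooled estimate added a median of 29.1. SE is the absolute log2 fold change over the square root of F. DESeq2 1.42.0 was an alternative. The scripts were tested on simulated data. Sums were made with Python 3.11.15.

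Named genes were the 15 with the largest change in each direction (50 CPM or more on the higher side in both replicates, same direction), up to 3 called members per list and direction (20 CPM or more), and all members of the mitochondrially encoded and outside-pattern ribosomal lists, with GFP; the text gives a part of them, and 1 gene is not reported here. The cells and lists were chosen with earlier results of these data known. Gene lengths, coordinates and sequences were not used here.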

Additional observations from a re-analysis of the deposited data

How the results depend on the processing

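With 1 residual degree of freedom, leaving out a replicate leaves none, so no test without a replicate was possible and only fold changes were computed: no called gene among the 184 named changed direction, ATP8, which was not called, was at 0.19 without replicate 1 and -0.25 without replicate 2, and 18 without replicate 1 and 33 without replicate 2 moved by more than 1 SD of the replicates. Removing the replicate block gave 4145 higher and 3946 lower genes, against 4090 and 3865 with it, and of the named genes' calls ended that of TTR alone.

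Under 3 settings a count of calls was lower by over 1.5 times. With 4000 to 8000 UMIs per cell 2350 genes were higher and 1933 lower. With no neuron gene detected 2467 were higher and 2155 lower. DESeq2 gave 2836 higher and 2264 lower. The lists held 605 tested genes, 324 on the higher and 141 on the lower side; the latter numbered 92 with DESeq2 and 75 at 4000 to 8000 UMIs. The other alternatives kept both counts within 1.5 times. They cover no TMM, cells with PAX6 or SOX1, cells without mesenchyme or epithelium genes, redefined ribosomal genes, other limits of the share, SOX2 at 2 or more UMIs, thinned cells, sums thinned to equal totals, rule genes kept, no filter on low counts and the middle cells in the fit. Scaling to UMIs per cell and a limit of 0.5% on the mitochondrial share were chosen after seeing the data, and gave 4102 higher and 4031 lower, and 3823 higher and 3567 lower.

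Of the named genes' calls, 32 were lost with the direction kept at 4000 to 8000 UMIs, 16 with DESeq2 and 14 with no neuron gene detected. Some named genes changed sign, and the cause was not tested. At 4000 to 8000 UMIs the log2 fold changes were 0.11 for ATP6, 0.053 for COX2, 0.088 for CYTB, 0.080 for ND4L, 0.066 for NRG3 and -0.019 for RSPO1. Without TMM they were -0.34 for ATP8, -0.12 for HBZ and -0.16 for MAP2. ATP8 was at -0.033 with DESeq2 and -0.013 per cell. MAP2 was at -0.038 with limits of 20% and 4%. Among cells with PAX6 or SOX1, ERBB4 was at 0.0035 and NRG3 at 0.065. With no neuron gene detected, KRT8 was at -0.016, GATA3 at -0.39, ND4L at 0.51, RSPO3 at -0.92 and WNT3A at -0.41.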

Other observations

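Several gene families that were picked after the main results had been seen are given as a description. Of 78 mitochondrial ribosomal protein genes, which are encoded in the nucleus and translate the mitochondrial mRNAs, 60 were higher on the high side and 4 lower, with a median log2 fold change of 1.64. Of 47 complex I subunit and assembly genes 40 were higher and 2 lower, with a median of 2.56. Of 17 genes of the V-ATPase, the proton pump of lysosomes, 11 were higher and 4 lower, with a median of 1.63. Over all 11751 genes tested 34.8% were higher and 32.9% lower.

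Of 44 ubiquitin-specific proteases, which remove ubiquitin from proteins, 29 were lower and 7 higher, with a median of -0.51. Of 22 importins and exportins, which carry cargo through the nuclear pore, 12 were lower and 2 higher. Of 36 kinesins, motors of microtubules, 18 were lower and 7 higher. Of 249 zinc finger genes named ZNF 80 were lower and 49 higher, so the share of lower genes was close to the background. Of 29 subunits of Mediator, the bridge between transcription factors and RNA polymerase II, 11 were higher and 8 lower.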
